A study of Mus musculus with 89 samples.

Results

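The livers described here came from BALB/c mice that carried a 67NR mammary tumour, and the members are all rows of the authors' deposited table that sets the group 67NR-Tb against its own control group PBS-3. That table lists 23306 genes by RefSeq symbol, of which 12329 have an adjusted p-value and are called tested below. The group 67NR-Tb holds 3 liver samples taken 4 weeks after 67NR cells in 50 µl of PBS (phosphate-buffered saline) were placed in the mammary fat pad, and PBS-3 holds 3 liver samples taken 4 weeks after 50 µl of PBS alone at the same site. These 6 samples are part of 89 in the study, which profiled livers of mice with several tumours or with injected extracellular vesicles and particles, and cultured hepatocytes. The group 4T1-Tb with its control PBS-5, 3 livers each, had the same strain, site, volume and time, and serves below for comparison. Sex, age and genotype are not given in the sources used here, nor is it said whether each sample was a separate mouse.

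The 67NR and 4T1 lines are widely used relatives derived from 1 spontaneous mammary tumour of a BALB/c-background mouse, of which 4T1 spreads to distant organs and 67NR rarely does. The liver answers inflammatory signals from elsewhere in the body with the acute phase response, in which interleukin-6 type cytokines act through the receptor chain gp130 and the transcription factor STAT3 to raise secretion of fibrinogen, haptoglobin, complement factors and protease inhibitors by hepatocytes. The same organ holds resident macrophages called Kupffer cells, sinusoidal endothelial cells and stellate cells, and is the main site of drug metabolism, amino acid breakdown and fatty acid oxidation.

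Deposited values were 1 fold change per gene with its standard error, so no value for a single liver can be shown, and every change is given as log2 fold change ± standard error of 67NR-Tb over PBS-3. The deposited changes are shrunken: at base means under 1 the largest was only 0.185, and the error has 1 ceiling, 0.188. Read as fold changes they understate the difference, more so where the error is near that ceiling, whereas the Wald score, the ratio of change to error, is not altered by a prior of this kind. A gene is said to rise or fall where its adjusted p in that table is under 0.05. Base means are means of scaled counts over both groups and are not levels per transcript length. Depth per library is not given in the sources used here, and the smallest base mean tested was 13.5. Albumin (Alb), the main plasma protein made by hepatocytes, had a base mean of 2546190.0 in the authors' deposited table. Of the 17 genes listed for mammary epithelium and tumour, Krt5, Krt14, Krt17, Trp63, Elf5 and Pgr had base means between 0.0806 and 0.399, Twist1 one of 1.28, and Krt6a, Wap, Csn2, Csn3 and Lalba were listed at 0, in the authors' deposited table. The list also holds genes that were well detected in whole liver, with base means there of 3705 for Krt8, 3402 for Krt18, 996 for Cdh1, 466 for Esr1 and 171 for Snai2.

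Changes were many and small. Of the tested genes, 2288 differed (18.6%), 1127 of them higher in 67NR-Tb (9.14%) and 1161 lower (9.42%), in the authors' deposited table. Their median size was 0.38 on the log2 scale, 587 went beyond 0.5 and 11 beyond 1. The lowest change was -0.97 and the highest 1.41, while the median over all tested genes was 0.0031 and the median error 0.12.

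**Figure D1:**
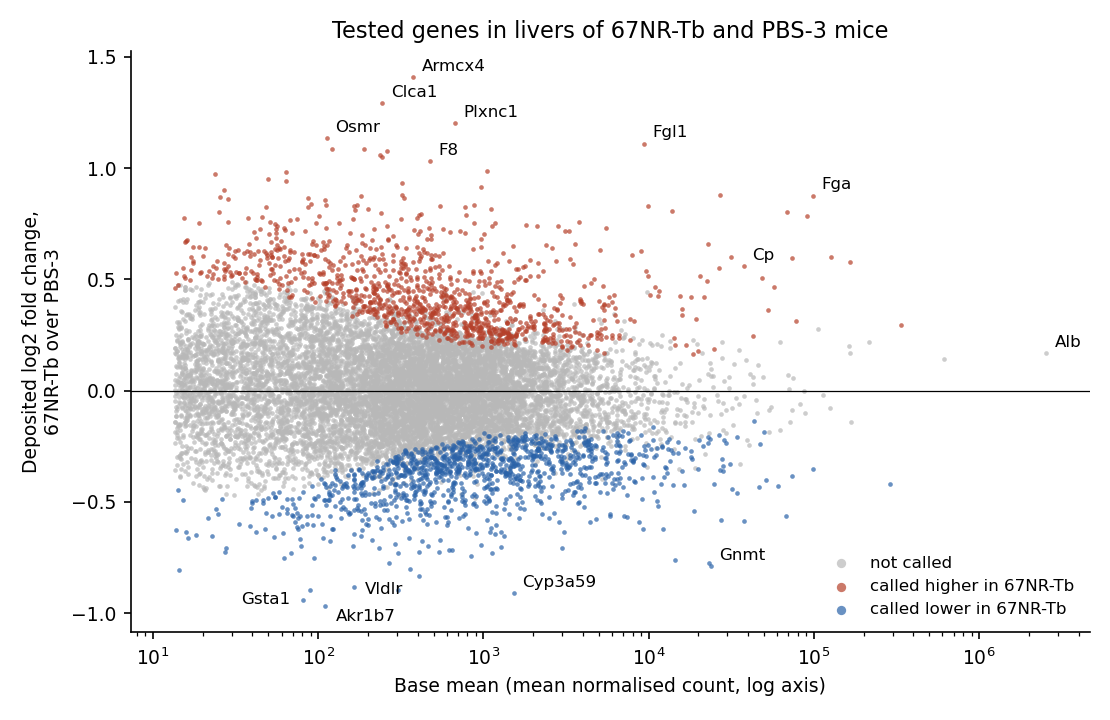
Deposited log2 fold change of 67NR-Tb over PBS-3 (vertical axis) against base mean (horizontal log axis) for the 12329 tested genes, 1 point a gene, red where called higher, blue where called lower and grey where not called. Fgl1 and Fga stand out among abundant transcripts above 0, and Gnmt below it, while Alb lies at 0.17 and was not called.

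The 12 largest rises, among genes with a base mean of at least 50 in the authors' deposited table, were led by Armcx4 at 1.41 ± 0.19, an armadillo repeat gene, and Clca1 at 1.29 ± 0.14. Plexin C1 (Plxnc1), a semaphorin receptor, stood at 1.20 ± 0.16 there, and the oncostatin M receptor Osmr at 1.13 ± 0.15. Next came Fgl1 at 1.11 ± 0.19, a hepatocyte-secreted relative of fibrinogen, and Tnfrsf11b at 1.09 ± 0.18, which encodes the decoy receptor osteoprotegerin, in the authors' deposited table. The serpins Serpina3h and Serpina3g rose by 1.09 and 1.06, and Gnat1, a transducin subunit, by 1.08 in that table. Hepatocyte growth factor (Hgf, 1.05 ± 0.13), clotting factor VIII (F8, 1.03 ± 0.15) and the collectin Colec10 (0.98 ± 0.13) completed the list in the authors' deposited table. Several of these are made outside hepatocytes: Hgf mainly by stellate cells and F8 mainly by endothelial cells. Errors of Armcx4 and Fgl1 lay at the ceiling, and with the shrinkage undone their effects were 2.68 ± 0.36 for Armcx4 and 2.1 ± 0.36 for Fgl1.

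Among the 12 largest falls were several enzymes of detoxification and amino acid metabolism. The aldo-keto reductase Akr1b7 stood at -0.97 ± 0.16, Gsta1 at -0.94 ± 0.17 and Gsta2 at -0.90 ± 0.16 in the authors' deposited table. Cyp3a59 (-0.91 ± 0.12), Cyp3a57 (-0.90 ± 0.16) and Cyp2a5 (-0.77 ± 0.15) are cytochrome P450 enzymes of the same table. Glycine N-methyltransferase (Gnmt), which regulates the level of the methyl donor S-adenosylmethionine, stood at -0.79 ± 0.12 in the authors' deposited table with a base mean of 23846. The very low density lipoprotein receptor Vldlr (-0.88 ± 0.15), the corticosteroid-binding globulin Serpina6 (-0.76 ± 0.14) and elastin (Eln, -0.75 ± 0.17) fell too, as did Ypel2 (-0.80 ± 0.14) and Wipf3 (-0.77 ± 0.15), in the authors' deposited table.

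The acute phase genes rose, with fibrinogen at their head. All 3 fibrinogen chains were called: Fga at 0.88 ± 0.13, Fgb at 0.78 ± 0.13 and Fgg at 0.80 ± 0.13 in the authors' deposited table, with adjusted p-values of 4.06e-09, 1.26e-07 and 3.21e-07 by DESeq2's Wald test. Base means of the 3 genes were 98401, 90544 and 68993 there, so these are among the most abundant transcripts that changed. Adding Fgl1, 4 of 4 members rose, against 9.14% of all tested genes. The 3 chains are neighbours on mouse chromosome 3 and moved by nearly the same amount, so their promoters are printed here, from 250 bases before to 50 after the start site (RefSeq, GRCm38.p6). Capitals mark matches on either strand to CTGGGAA, the core of the interleukin-6 response element of fibrinogen genes, and to the palindromic STAT motif TTCNNNGAA.
Fga, chr3:83025903-83026202, plus strand: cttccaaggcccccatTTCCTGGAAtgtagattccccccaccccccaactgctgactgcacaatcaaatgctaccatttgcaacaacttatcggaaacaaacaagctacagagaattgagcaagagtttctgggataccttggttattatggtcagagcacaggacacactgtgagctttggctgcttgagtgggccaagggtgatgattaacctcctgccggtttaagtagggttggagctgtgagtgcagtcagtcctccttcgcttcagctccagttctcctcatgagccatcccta
Fgb, chr3:83049814-83050113, minus strand: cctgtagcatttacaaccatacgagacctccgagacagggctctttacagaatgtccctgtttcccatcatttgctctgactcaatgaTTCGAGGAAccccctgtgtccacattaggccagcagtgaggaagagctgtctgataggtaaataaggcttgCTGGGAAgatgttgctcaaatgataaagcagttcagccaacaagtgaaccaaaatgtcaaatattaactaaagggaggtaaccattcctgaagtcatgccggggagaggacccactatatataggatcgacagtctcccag
Fgg, chr3:83007474-83007773, plus strand: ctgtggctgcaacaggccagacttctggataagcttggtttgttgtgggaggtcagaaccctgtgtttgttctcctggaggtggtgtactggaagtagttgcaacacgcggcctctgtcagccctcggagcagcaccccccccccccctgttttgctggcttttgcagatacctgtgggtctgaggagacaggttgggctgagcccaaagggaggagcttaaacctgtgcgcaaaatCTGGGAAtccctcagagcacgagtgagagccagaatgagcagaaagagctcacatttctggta
Fgb and Fgg each held 1 CTGGGAA, and Fga and Fgb each held 1 TTCNNNGAA, with no overlap between the matches. Of 32851 mouse promoters of this length in the RefSeq table, 11.1% held CTGGGAA and 8.30% held TTCNNNGAA. A match describes letters in the window and is not evidence of binding.

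Other positive acute phase genes rose in 13 of 22 tested cases, with 1 fall and a median of 0.42. Serpina3m stood at 0.81 ± 0.14, Lrg1 at 0.74 ± 0.18 and ceruloplasmin (Cp), the copper-carrying ferroxidase, at 0.56 ± 0.09 in the authors' deposited table. Orm2 (0.65 ± 0.19), Orm3 (0.61 ± 0.18) and Orm1 (0.54 ± 0.13) encode orosomucoids, and Itih3 (0.60 ± 0.11) and Itih4 (0.47 ± 0.10) encode hyaluronan-binding inter-alpha-trypsin inhibitor chains, in the authors' deposited table. Haptoglobin (Hp), the haemoglobin scavenger, stood at 0.50 ± 0.11, the lipopolysaccharide-binding protein Lbp at 0.57 ± 0.13, Steap4 at 0.58 ± 0.14 and the haem carrier Hpx at 0.31 ± 0.10 in that table. Serpina3n rose by only 0.21, and angiotensinogen (Agt) fell (-0.37 ± 0.09), in the authors' deposited table. No serum amyloid A gene passed the test: Saa2 stood at 0.04 ± 0.18 (adjusted p = 0.907), Saa3 at -0.29 ± 0.18 (adjusted p = 0.247) and Saa4 at 0.34 ± 0.14 (adjusted p = 0.0633) in the authors' deposited table, and Saa1 had no adjusted p. The pentraxins Apcs (0.63 ± 0.18) and Crp (0.32 ± 0.10) rose in the authors' deposited table. Of 12 negative acute phase genes, Serpina6 (-0.76 ± 0.14) and Apoa2 (-0.35 ± 0.09) fell, and Fetub (0.22 ± 0.08) and Kng1 (0.24 ± 0.09) rose, in the authors' deposited table.

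Complement genes rose in 15 of 24 tested cases, with 1 fall and a median of 0.39. The membrane attack complex was represented by C6 (0.87 ± 0.17), C8a (0.83 ± 0.12), C8b (0.54 ± 0.11), C9 (0.66 ± 0.14) and Hc (0.55 ± 0.11), which encodes C5, in the authors' deposited table. C8g, a lipocalin bound to C8, was the 1 fall at -0.38 ± 0.10 there. Regulators rose as well: the C1 inhibitor Serping1 stood at 0.42 ± 0.09 and factor I (Cfi) at 0.36 ± 0.08 in the authors' deposited table. The central component C3, with a base mean of 334943, rose by 0.30 in the authors' deposited table, C4b by 0.66 and Mbl1 by 0.27. C1qa, C1qb and C1qc, which Kupffer cells make, rose by 0.42 ± 0.15, 0.59 ± 0.15 and 0.49 ± 0.15 in the authors' deposited table. Clotting factors split evenly, with 5 of 20 higher and 5 lower. Factors VIII, V and IX rose (F8 1.03 ± 0.15, F5 0.32 ± 0.08, F9 0.28 ± 0.09), and factor XII, protein C, antithrombin, tissue factor and prothrombin fell (F12 -0.38 ± 0.09, Proc -0.29 ± 0.07, Serpinc1 -0.19 ± 0.05, F3 -0.60 ± 0.16, F2 -0.14 ± 0.05), in the authors' deposited table. Pros1 and Kng1 were the other 2 that rose.

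Genes of the interleukin-6 receptor system rose in part. Of 19 tested, 6 were higher, 1 lower and 12 not called (median 0.091), against 9.14% of all tested genes higher and 9.42% lower. Osmr (1.13 ± 0.15), the shared chain gp130 (Il6st, 0.76 ± 0.11), Il6ra (0.68 ± 0.16), Jak1 (0.28 ± 0.08), Stat3 (0.72 ± 0.11) and the feedback inhibitor Socs3 (0.77 ± 0.18) were higher in the authors' deposited table, and Il11ra1 was lower at -0.48 ± 0.11, out of 19 tested. The cytokines themselves were too low to be tested, with base means of 0.252 for Il6, 1.27 for Osm, 1.42 for Lif and 2.20 for Il11. Against the same shares of all tested genes, 16 of 23 NF-kB subunits and targets were not called (median 0.083), 6 rose and 1 fell. The rises were the adhesion molecule Vcam1 (0.74 ± 0.15), Nfkbiz (0.58 ± 0.16), Tlr4 (0.60 ± 0.18), Ripk1 (0.26 ± 0.08), P-selectin (Selp, 0.56 ± 0.19) and Il1r1 (0.49 ± 0.19), with the inhibitor Nfkbia lower at -0.44 ± 0.11, in the authors' deposited table.

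Macrophage and endothelial genes were higher. In whole liver, more cells of a type and more RNA per cell cannot be told apart. Of 22 Kupffer cell and macrophage genes 15 rose (median 0.49), among them the scavenger receptors Cd163 (0.93 ± 0.17), Msr1 (0.79 ± 0.15) and Marco (0.49 ± 0.18), the mannose receptor Mrc1 (0.81 ± 0.15) and the Kupffer identity genes Vsig4 (0.70 ± 0.17), Timd4 (0.62 ± 0.17) and Clec4f (0.55 ± 0.16), in the authors' deposited table. Of 27 sinusoidal endothelial genes 19 rose (median 0.47). Receptors for vascular endothelial growth factors stood at 0.75 ± 0.16 (Kdr), 0.72 ± 0.16 (Flt4) and 0.70 ± 0.17 (Flt1) in the authors' deposited table. Scavenger receptors of these cells, Fcgr2b (0.71 ± 0.13), Stab1 (0.43 ± 0.13) and Stab2 (0.50 ± 0.15), the lectin Clec4g (0.56 ± 0.13), the junction genes Cdh5 (0.68 ± 0.15) and Pecam1 (0.51 ± 0.14) and the niche signals Wnt9b (0.60 ± 0.19) and Bmp2 (0.43 ± 0.15) rose with them in the authors' deposited table. The median transcript of this list was 3659 bases, a length at which the median of all tested genes was above 0, as described below.

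Stellate cell and matrix genes rose in 11 of 29 cases and 1 fell, against 9.14% of all tested genes higher and 9.42% lower. Hgf (1.05 ± 0.13), decorin (Dcn, 0.59 ± 0.11), the receptor Pdgfra (0.59 ± 0.14), the basement membrane collagens Col4a1 (0.42 ± 0.14) and Col4a2 (0.48 ± 0.13) and lumican (Lum, 0.47 ± 0.16) were higher, and Col1a1, the main fibrillar collagen of scars, was lower at -0.55 ± 0.14, in the authors' deposited table. Neutrophil genes were scarce. Of 21 detected, 6 could be tested and 5 rose, against 9.14% of all tested genes. They included the alarmin subunit S100a9 (0.65), Itgam (0.75), the oxidase subunit Cybb (0.64) and the receptor Csf3r (0.63) in the authors' deposited table. All had base means of 223 or lower there, with 19.0 for Itgam and 27.6 for S100a9, near the smallest tested, 13.5. Base means cover both groups, so a rise itself helps a scarce gene to be tested, and 5 of 6 is no share of neutrophil genes. In that table the median change was 0.635 over the 6 tested genes and only 0.188 over all 21 detected. Granule genes such as Mpo, Elane, Ltf and Ngp had base means of 1.63, 1.64, 3.00 and 3.04 and were not tested there. The leukocyte gene Ptprc rose (0.65 ± 0.15), whereas Cd4 (0.03 ± 0.19), Lck (0.27 ± 0.19) and Zap70 (-0.01 ± 0.18) were not called in the authors' deposited table, and Cd3e, Cd8a and Gzmb, with base means of 7.63, 7.33 and 6.96, were not tested. Of 9 B cell genes tested 2 rose, Bank1 (0.50 ± 0.19) among them, against 9.14% of all tested genes, in the authors' deposited table. Of 27 proliferation genes 5 rose and 22 were not called, against 9.14% of all tested genes higher. The rises were Mcm4 (0.57 ± 0.13), Top2a (0.76 ± 0.19), Kif11 (0.63 ± 0.18), Mki67 (0.53 ± 0.18) and the cycle inhibitor Cdkn1a (0.71 ± 0.18), in the authors' deposited table. Bile duct genes went the other way in 3 of 7 cases, against 9.42% of all tested genes lower. Among the 3 were Prom1 at -0.72 ± 0.16 and Epcam at -0.49 ± 0.19 in the authors' deposited table.

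**Figure D2:**
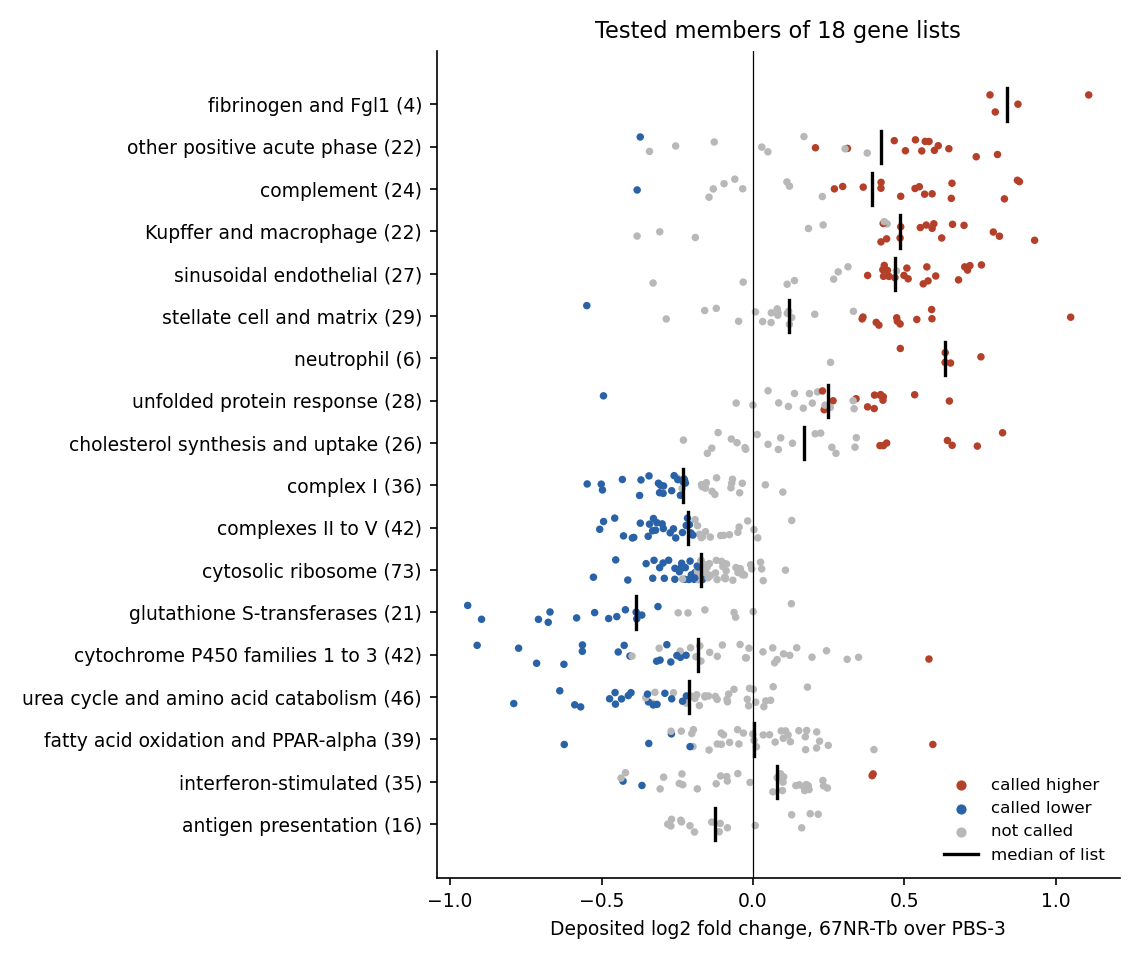
Deposited log2 fold change of 67NR-Tb over PBS-3 (horizontal axis) of every tested member of 18 gene lists, 1 point a gene with the number of members in brackets, red where called higher, blue where called lower and grey where not called, and a black bar at the list's median. The upper 9 lists have medians between 0.12 and 0.84, and the respiratory chain, ribosome and enzyme lists have medians between -0.39 and -0.17.

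Some chaperones of the endoplasmic reticulum and enzymes of cholesterol synthesis were among the genes that rose. Of 28 unfolded protein response genes 13 were higher, 1 lower and 14 not called, against 9.14% of all tested genes higher. Hspa5, which encodes BiP, stood at 0.42 ± 0.09, Hsp90b1 at 0.42 ± 0.09, Dnajb9 at 0.65 ± 0.15, Creld2 at 0.53 ± 0.13 and the disulfide isomerases Pdia3 and Pdia4 at 0.43 ± 0.10 and 0.26 ± 0.08 in the authors' deposited table. Trib3, a target of the PERK branch, was the 1 fall at -0.49 ± 0.19 there. Of 26 cholesterol genes 7 rose and 19 were not called; the rises included Idi1 (0.66 ± 0.15), Sqle (0.82 ± 0.16), Cyp51 (0.74 ± 0.11), Sc4mol (0.43 ± 0.12), Nsdhl (0.42 ± 0.15) and Hsd17b7 (0.44 ± 0.14), all steps of the synthesis, in the authors' deposited table.

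Glutathione S-transferases fell in most cases, and other enzymes that handle foreign compounds in a smaller part. Of 21 glutathione S-transferases 14 were lower, against 9.42% of all tested genes, with a median of -0.39. Besides Gsta1 and Gsta2 these included Gstt3 (-0.71 ± 0.13), Mgst3 (-0.68 ± 0.13), Gstm1 (-0.58 ± 0.11) and Gstm3 (-0.67 ± 0.19) in the authors' deposited table. Reads of near-identical Gsta, Gstm, Cyp3a and Ces1 paralogs may have been split between members, so single members of these families are uncertain. Of 42 cytochrome P450 genes of families 1 to 3, 16 fell and 1 rose. Cyp1a2 (-0.62 ± 0.15), Cyp2g1 (-0.71 ± 0.15), Cyp2c70 (-0.43 ± 0.11), Cyp2f2 (-0.31 ± 0.09) and Cyp2c29 (-0.24 ± 0.09) fell in the authors' deposited table, and Cyp3a13 rose (0.58 ± 0.13). Glucuronosyl- and sulfotransferase genes fell in 9 of 23 cases, Ugdh (-0.58 ± 0.12), which makes the glucuronic acid donor, among them, and carboxylesterases in 4 of 12, led by Ces1c (-0.38 ± 0.07), in the authors' deposited table.

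Amino acid catabolism fell in 18 of 46 cases (median -0.21). With Gnmt went Ahcy (-0.59 ± 0.10), the next enzyme of the methionine cycle, alanine aminotransferase (Gpt, -0.57 ± 0.12), Prodh (-0.64 ± 0.15) of proline breakdown, Hpd (-0.43 ± 0.09) of tyrosine breakdown, Ivd (-0.47 ± 0.10) and Bckdha (-0.46 ± 0.10) of branched-chain amino acids and the urea cycle enzyme Ass1 (-0.40 ± 0.13), in the authors' deposited table. Of 27 genes of glucose metabolism 9 fell and 2 rose. G6pc (-0.49 ± 0.18), the last step of glucose release, Gckr (-0.39 ± 0.08), Pklr (-0.42 ± 0.13), Pygl (-0.29 ± 0.09) and Gapdh (-0.41 ± 0.09) fell, and Ldha (0.45 ± 0.12) and Pfkfb3 (0.51 ± 0.18) rose, in the authors' deposited table. Pck1, the other control point of gluconeogenesis, stood at 0.01 ± 0.18 (adjusted p = 0.983) in the authors' deposited table. Lipogenesis genes were mostly not called, 19 of 22, with 3 falls and a median of -0.025, against 9.42% of all tested genes lower. The falls were the carbohydrate-sensing factor Mlxipl (-0.56 ± 0.11), Dgat2 (-0.35 ± 0.11) and Pklr, in the authors' deposited table. Against the same share of all tested genes, 6 of 31 genes of bile acid synthesis and transport fell. Slc27a5 (-0.31 ± 0.07), the bile acid-CoA ligase, had the smallest p of these in the authors' deposited table.

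Fatty acid oxidation genes were mostly not called: 4 of 39 fell and 1 rose, the share that fell being near the 9.42% of all tested genes, with a median of 0.0037. Cpt1a, which admits fatty acids to mitochondria, stood at 0.25 ± 0.12, Cyp4a10 at 0.09 ± 0.19 and the factor Ppara at 0.21 ± 0.13 in the authors' deposited table, with adjusted p-values of 0.115, 0.779 and 0.251 by DESeq2's Wald test. Interferon-stimulated genes gave 2 rises (Iigp1 0.40 ± 0.13, Mx2 0.39 ± 0.14) and 2 falls (Bst2 -0.37 ± 0.11, Ifit3 -0.43 ± 0.16) among 35 tested in the authors' deposited table, a share below the 18.6% of all tested genes. Antigen presentation gave 0 calls among 16 genes by DESeq2's Wald test, and 5 were lower at an unadjusted p under 0.05. Immediate early genes gave 0 calls among 20 by the same test, with 1 higher and 2 lower at an unadjusted p under 0.05.

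Nuclear genes of the respiratory chain fell together by small amounts. Of 78 genes tested, cytochrome c (Cycs, 0.13 ± 0.09, not called) counted beside the subunits of the complexes, 45 were lower and 0 higher by DESeq2's Wald test. Over all tested genes 9.42% were lower and 9.14% higher. At an unadjusted p under 0.05 the count of higher genes among the 78 was again 0. Complex I had 20 of 36 lower (median -0.23), complex II 2 of 4 (median -0.17), complex III 6 of 9 (median -0.26), complex IV 7 of 11 (median -0.27) and the ATP synthase, complex V, 10 of 17 (median -0.20). The largest falls were Ndufs7 (-0.55 ± 0.10), Ndufa13 (-0.50 ± 0.09), Ndufb7 (-0.50 ± 0.11), Atp5d (-0.51 ± 0.11) and Uqcr11 (-0.49 ± 0.10) in the authors' deposited table. Assembly factors, which build these complexes and are not part of them, gave 1 fall in 31, Sco2 (-0.36 ± 0.12), in the authors' deposited table. Cytosolic ribosomal protein genes fell in 28 of 73 cases (median -0.17), led by Rps15 (-0.45 ± 0.08) and Rpl36 (-0.53 ± 0.10) in the authors' deposited table, and mitochondrial ribosomal protein genes in 9 of 76, with 1 rise, a share near the 9.42% of all tested genes.

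**Figure D3:**
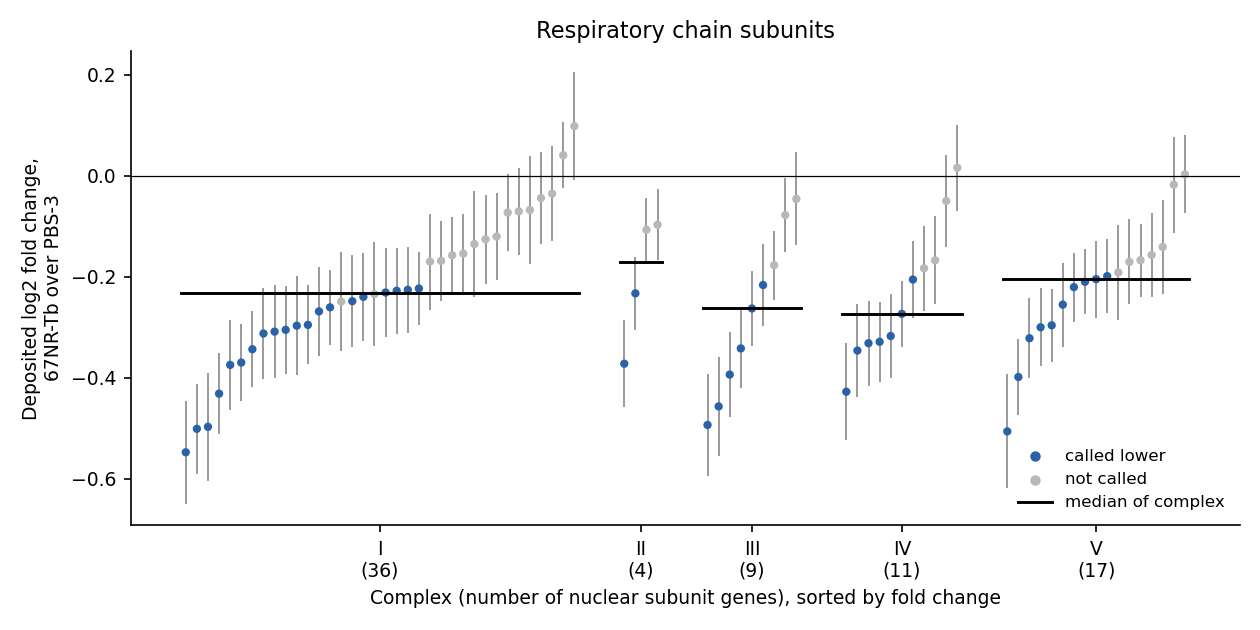
Deposited log2 fold change of 67NR-Tb over PBS-3 (vertical axis) of the tested nuclear subunit genes of complexes I to V, sorted within each complex, with bars of 1 standard error, blue points called lower and grey points not called, and a black line at the median of each complex. The 5 medians lie between -0.27 and -0.17, and 45 points are blue.

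A trend with transcript length ran beside these falls. In the decile (10 equal bins) of tested genes with the shortest transcripts, up to 1230 bases, 3.11% were higher in 67NR-Tb and 20.7% lower, and the median change was -0.13. In the decile with the longest transcripts, over 6177 bases, 18.8% were higher and 3.20% lower, and the median was 0.13. Across 12186 genes with a length, Spearman's rank correlation between length and change was 0.298 in 67NR-Tb, and it was 0.0764 across 15030 genes in 4T1-Tb, as descriptions across genes that share the same libraries. Median transcripts were 760.5 bases in complex I, 824 in complexes II to V, 833 in the cytosolic ribosome and 1153 in the glutathione S-transferases. An alternative chosen after the data were seen set each gene against the median of genes in the same decile of length. It called 834 of all 12186 genes higher and 925 lower. In that setting 8 of 36 complex I genes, 11 of 42 complex II to V genes and 11 of 21 glutathione S-transferases were called lower. Cytosolic ribosomal protein genes gave 5 of 73 lower, a share near that of all genes. Mitochondrial ribosomal protein genes then gave 2 of 76 lower, cytochrome P450 genes 9 of 42 lower and 2 higher, glucuronosyl- and sulfotransferases 7 of 23 lower, carboxylesterases 2 of 12 and amino acid catabolism 12 of 46. In the same setting 4 of 4 genes of fibrinogen and Fgl1, 13 of 22 other acute phase genes, 14 of 24 complement genes, 15 of 21 Kupffer cell genes with a length and 15 of 27 sinusoidal endothelial genes were called higher. The part of the length trend in these results was not tested.

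**Figure D4:**
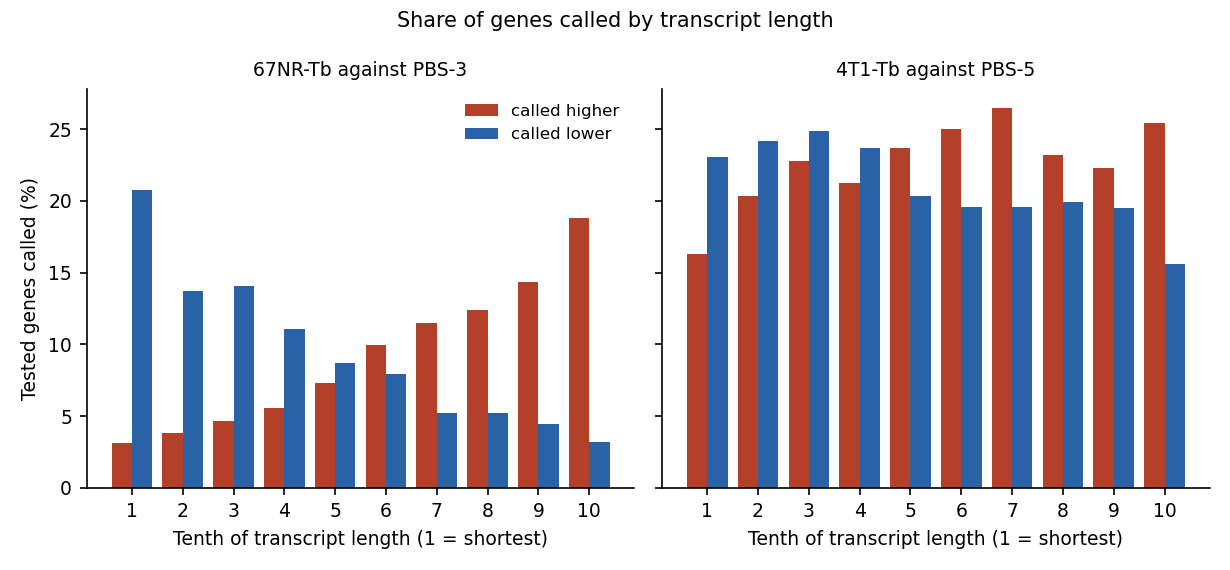
Percent of tested genes called higher (red bars) and lower (blue bars) in each decile of transcript length, from the shortest (1) to the longest (10), in 67NR-Tb against PBS-3 (left) and 4T1-Tb against PBS-5 (right). In 67NR-Tb the red bars grow from 3.11% to 18.8% and the blue bars shrink from 20.7% to 3.20%, and in 4T1-Tb all bars lie between 15.6% and 26.5%.

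The comparison with 4T1-Tb asks how the liver's change with the rarely spreading line stands beside that with the metastatic line at the same site and time. The 2 tables share no livers and each tumour has its own PBS group. The tumour line and any other difference between the 2 sets of livers therefore cannot be told apart. In the authors' deposited table for 4T1-Tb, 22.4% of tested genes were higher and 21.0% lower. Deposited changes of the 2 tables are shrunken by different amounts and were compared only as an alternative, given in the closing section. The main comparison used effects with the shrinkage undone in 11614 of 12303 genes tested in both, the ones whose effect could be recovered. Of these, 1843 had a higher effect in 67NR-Tb (15.9%) and 1556 a lower one (13.4%), at an adjusted p under 0.05 for the difference. Relative to each table's own median the larger count changed sides, with 1469 higher and 1741 lower. Of 2279 genes called in 67NR-Tb and tested in both, 1197 were called the same way in 4T1-Tb and 109 the opposite way. The rest were not called in 4T1-Tb. Of all 12303 genes tested in both, 5833 were called in 4T1-Tb in either direction.

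Fibrinogen and Fgl1 rose in both tumours and less in 67NR-Tb for the 3 chains. With the shrinkage undone, Fga rose by 1.01 ± 0.15 in 67NR-Tb and 1.66 ± 0.19 in 4T1-Tb, a difference of -0.66 ± 0.24 (adjusted p = 0.0226 over all genes compared). For Fgl1 the effects were 2.1 ± 0.36 in 67NR-Tb and 3.06 ± 0.22 in 4T1-Tb, and the difference of -0.96 ± 0.42 was not called (adjusted p = 0.0670). Of 18 other acute phase genes compared, 12 had a lower effect in 67NR-Tb and 2 a higher one, against 13.4% and 15.9% of all genes compared. Haptoglobin (Hp) was at 0.55 ± 0.12 in 67NR-Tb and 2.39 ± 0.18 in 4T1-Tb, and Lrg1 at 1.15 ± 0.28 in 67NR-Tb and 3.06 ± 0.19 in 4T1-Tb. Serpina3m, at 0.97 ± 0.17 in 67NR-Tb and 1.02 ± 0.16 in 4T1-Tb, gave a difference of -0.05 ± 0.24 that was not called (adjusted p = 0.90). Gp130 and Stat3 gave no called difference, with Il6st at 0.84 ± 0.12 in 67NR-Tb and 1.05 ± 0.15 in 4T1-Tb and Stat3 at 0.79 ± 0.12 in 67NR-Tb and 1.00 ± 0.08 in 4T1-Tb. The interleukin-6 receptor Il6ra, at 0.89 ± 0.21 in 67NR-Tb and 0.02 ± 0.18 in 4T1-Tb, had the higher effect in 67NR-Tb (adjusted p = 0.00923).

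Effects on endothelial and Kupffer cell genes were mostly not told apart between the tumours. Of 26 endothelial genes compared, 4 had a higher effect in 67NR-Tb and 1 a lower one, a share of higher effects near the 15.9% of all genes compared, and the median effects were 0.57 in 67NR-Tb and 0.41 in 4T1-Tb. Kdr was at 0.97 ± 0.20 in 67NR-Tb and 0.02 ± 0.16 in 4T1-Tb, Ehd3 at 0.50 ± 0.15 in 67NR-Tb and -0.17 ± 0.13 in 4T1-Tb, and Dnase1l3 at 0.57 ± 0.18 in 67NR-Tb and -0.10 ± 0.13 in 4T1-Tb, each a called difference. Factor VIII (F8), at 1.30 ± 0.19 in 67NR-Tb and 0.35 ± 0.18 in 4T1-Tb, differed likewise (adjusted p = 0.00206). Of 20 Kupffer cell genes compared, 2 had a lower effect in 67NR-Tb, a share near the 13.4% of all genes compared. Lyz2 had the larger gap of the 2 (0.57 ± 0.21 in 67NR-Tb, 2.96 ± 0.20 in 4T1-Tb). Cd163 stood at 1.30 ± 0.24 in 67NR-Tb and 1.24 ± 0.27 in 4T1-Tb.

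The 8 largest lower effects of 67NR-Tb included several genes known from leukocytes. Csf3r, the receptor for granulocyte colony-stimulating factor, was at 0.96 ± 0.27 in 67NR-Tb and 4.92 ± 0.31 in 4T1-Tb. The chromatin protein Hmgb2 was at -0.25 ± 0.19 in 67NR-Tb and 3.92 ± 0.28 in 4T1-Tb, Cd24a at -0.23 ± 0.32 in 67NR-Tb and 3.83 ± 0.31 in 4T1-Tb, and Arhgdib at 0.63 ± 0.23 in 67NR-Tb and 4.22 ± 0.37 in 4T1-Tb. Rac2, Lsp1, G6pdx and Atp8b4 made up the rest, with differences between -3.58 and -3.34. Of 20 proliferation genes compared, 17 had a lower effect in 67NR-Tb, and of 27 stellate cell and matrix genes 10, against 13.4% of all genes compared.

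The 8 largest higher effects of 67NR-Tb all belonged to genes called lower in 4T1-Tb. Cyp2a22 was at -0.71 ± 0.19 in 67NR-Tb and -3.85 ± 0.24 in 4T1-Tb, Cyp2c54 at 0.08 ± 0.16 in 67NR-Tb and -2.51 ± 0.37 in 4T1-Tb, and the fatty acid hydroxylase Cyp4a32 at 0.00 ± 0.19 in 67NR-Tb and -2.53 ± 0.24 in 4T1-Tb. The heat shock gene Hspa1b was at 0.57 ± 0.30 in 67NR-Tb and -2.48 ± 0.23 in 4T1-Tb. Mup21, Smad9, Ugt1a9 and Mpp4 had differences between 2.37 and 2.76. Across whole lists, 25 of 31 fatty acid oxidation genes compared, 23 of 35 cytochrome P450 genes, 18 of 20 glucuronosyl- and sulfotransferase genes and 16 of 19 glutathione S-transferases had a higher effect in 67NR-Tb. For complex I it was 11 of 36 and for complexes II to V 15 of 42, and over all genes compared it was 15.9%. Median effects for complex I were -0.25 in 67NR-Tb and -0.49 in 4T1-Tb. Cytosolic ribosomal protein genes ran against this: 16 of 73 had a lower effect in 67NR-Tb, against 13.4% of all genes compared. Their median effects were -0.18 in 67NR-Tb and -0.01 in 4T1-Tb. Their median transcript was 833 bases, and the decile of shortest transcripts had deposited medians of -0.13 in 67NR-Tb and -0.07 in 4T1-Tb. The part of length in this gap was not tested.

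**Figure D5:**
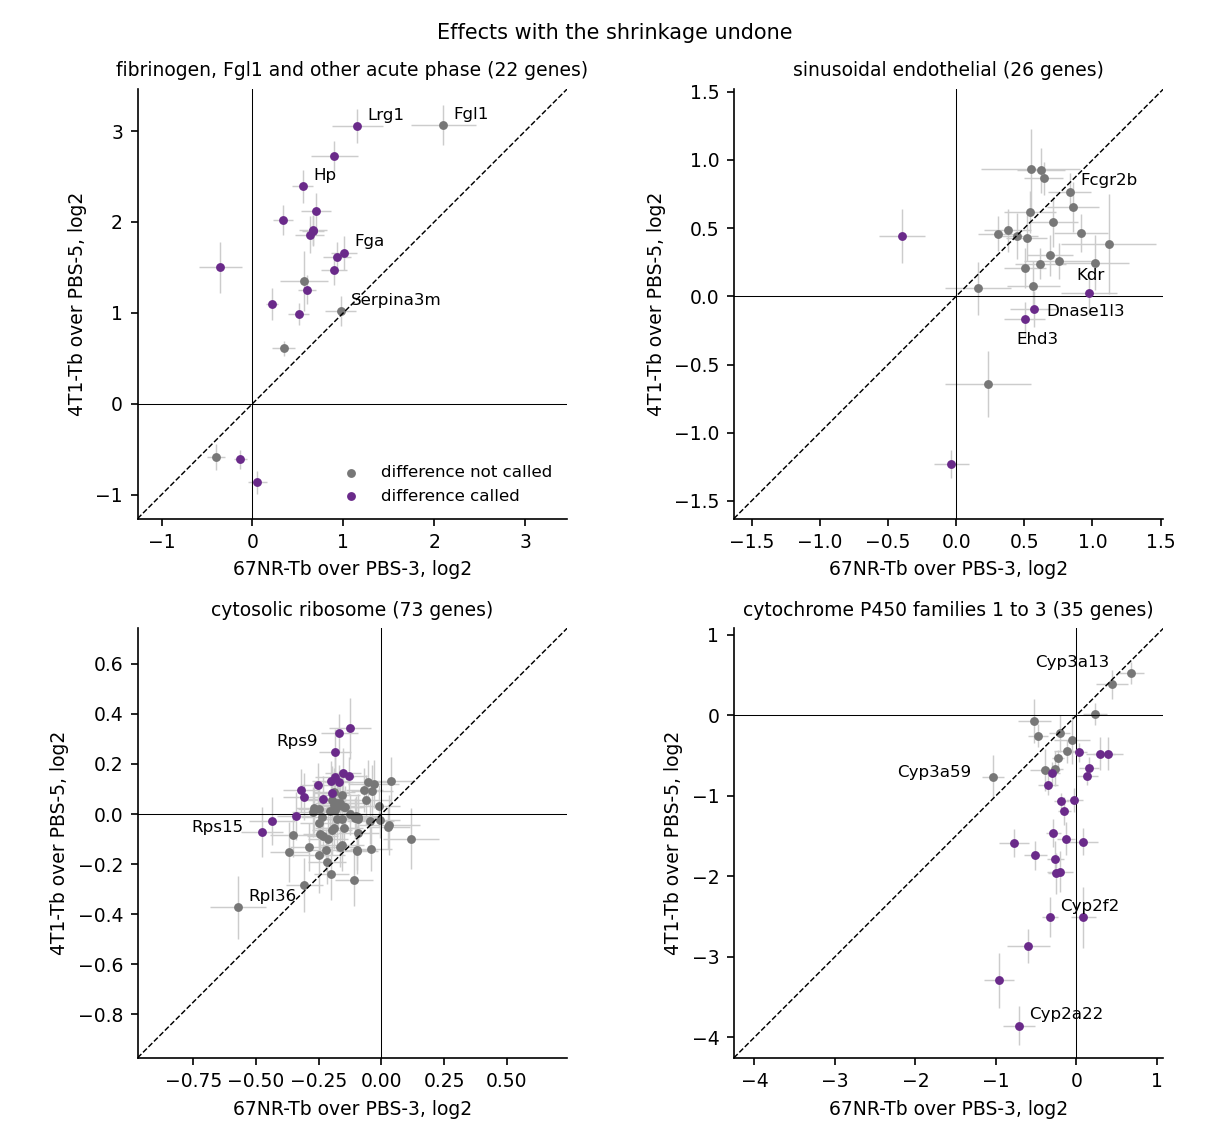
Effect in 67NR-Tb over PBS-3 (horizontal axis) against effect in 4T1-Tb over PBS-5 (vertical axis), log2 scale with the shrinkage undone and bars of 1 standard error, for members of 4 gene groups, with purple points where the difference was called, grey points where it was not, and a dashed line of equal effects. Hp and Lrg1 lie above the line, Kdr and Ehd3 lie below it, and most cytochrome P450 points lie below it at small 67NR-Tb effects.

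Genes called in opposite directions, with the difference itself called, numbered 58 that were higher in 67NR-Tb and lower in 4T1-Tb and 49 that were lower in 67NR-Tb and higher in 4T1-Tb. Those named next were chosen after their values were seen. Rapgef4 stood at 0.45 ± 0.12 in 67NR-Tb and -0.95 ± 0.13 in 4T1-Tb, and Ralgapa2 at 0.50 ± 0.08 in 67NR-Tb and -0.76 ± 0.13 in 4T1-Tb. The interleukin-22 receptor chain Il22ra1 stood at -0.80 ± 0.20 in 67NR-Tb and 1.55 ± 0.23 in 4T1-Tb, paxillin (Pxn), an adhesion adaptor, at -0.42 ± 0.09 in 67NR-Tb and 0.57 ± 0.09 in 4T1-Tb, and hemojuvelin (Hfe2), the co-receptor that raises hepcidin, at -0.61 ± 0.13 in 67NR-Tb and 0.86 ± 0.17 in 4T1-Tb. The chaperone Dnajb9 stood at 0.80 ± 0.18 in 67NR-Tb and -0.81 ± 0.15 in 4T1-Tb, and Herpud1 of the same response at 0.51 ± 0.17 in 67NR-Tb and -0.55 ± 0.19 in 4T1-Tb. Col1a1 stood at -0.67 ± 0.18 in 67NR-Tb and 1.10 ± 0.24 in 4T1-Tb, elastin at -1.09 ± 0.25 in 67NR-Tb and 0.97 ± 0.27 in 4T1-Tb, and keratin 8 (Krt8) at -0.45 ± 0.13 in 67NR-Tb and 0.67 ± 0.16 in 4T1-Tb.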

How the data were processed

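Total RNA from liver was made into stranded mRNA libraries, per the labels' protocols. The submitters' processing notes name bcl2fastq 2.19, TopHat2 2.0.11, Cufflinks 2.1.1, DESeq2 and build mm9; the counting step and depth per library are not given in the sources used here. The deposited tables give base means (a signal, mean scaled count), log2 fold changes with errors, Wald scores and p-values, per the file headers. No value per sample was used, so the precision of each value is the authors' standard error, and p-values measure the spread between samples that may be technical. Calls use the authors' DESeq2 Wald test and Benjamini-Hochberg adjusted p-values under 0.05.

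Python 3.11.15, pandas 2.3.3 and scipy 1.17.1 were used for what follows. Deposited fold changes were found to be shrunken toward 0, as by a zero-centred normal prior of width 0.377 (67NR-Tb) and 0.871 (4T1-Tb), read from the largest error of each table. The plan was to run no difference test in that case. The test on effects with the shrinkage undone was chosen after the values were seen, and was tried on simulated data. The simulation used a prior of the same form and width and took the spread between samples as known. It therefore cannot show whether the deposited values were shrunken by that prior. The difference test divides the difference of effects by the root of the summed squared errors, with a normal reference and Benjamini-Hochberg adjustment. Genes whose 4T1-Tb error was over the 67NR-Tb prior width were left out. Transcript lengths are GENCODE vM21 medians over RefSeq accessions, for 98.8% of tested genes. Of 1170 symbols in 47 lists 1165 matched the table, 16 through a synonym, and 1028 were tested; Ifi27, Ly6g, Ahsp, Trac and Hmgcs1 did not match. Genes named are the 12 largest rises and falls with a base mean of at least 50, without predicted genes, members of described lists and the 8 largest differences each way. Members and lists were chosen with earlier results of these data known. Alternatives are given in the closing section. The other tables were not used here.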

Additional observations from a re-analysis of the deposited data

Results flagged for a closer look

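In the results listed here the effect of 67NR-Tb differed from that of 4T1-Tb by the test of the difference, which covers 1843 genes with a higher effect in 67NR-Tb and 1556 with a lower one, or 1469 and 1741 relative to each table's own median. As effect of 67NR-Tb minus effect of 4T1-Tb on the log2 scale, the differences were 3.14 for Cyp2a22, 3.05 for Hspa1b, 2.76 for Mup21 and 2.59 for Cyp2c54. They were 2.53 for Cyp4a32, 2.43 for Smad9, 2.40 for Ugt1a9 and 2.37 for Mpp4. Negative differences, a lower effect in 67NR-Tb, were -4.17 for Hmgb2, -4.07 for Cd24a, -3.97 for Csf3r and -3.58 for Arhgdib, and -3.58 for G6pdx, -3.54 for Atp8b4, -3.47 for Rac2 and -3.34 for Lsp1. Among genes called in opposite directions in the 2 tumours, Rapgef4 differed by 1.41, Ralgapa2 by 1.25 and Plcxd2 by 1.25. Il22ra1 differed by -2.35, Pxn by -0.995, Kifc3 by -1.55, Lrfn3 by -2.01 and Hfe2 by -1.47. Each tumour had its own PBS group, so the tumour line and any other difference between the 2 sets of livers cannot be told apart in any of these.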

How the results depend on the processing

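Counts of 67NR-Tb calls depended on the threshold: 580 were higher and 557 lower at an adjusted p under 0.01, and 384 and 203 beyond 0.5 on the log2 scale. They moved by less than 1.5 times with no filter on low counts (1006 higher, 1035 lower), a base mean of at least 50 (1080, 1185), centring on the median (1112, 1203) or on the median of the same decile of length (834, 925). Of differences from 4T1-Tb, 1163 were higher in 67NR-Tb at an adjusted p under 0.01, errors enlarged by 5/4 gave 1042 higher and 988 lower, and leaving out genes with an error near the ceiling gave 992 lower. Relative to each table's median, which differed by 0.05, 1469 were higher and 1741 lower, so the larger share changed sides from 54.2% higher to 45.8% higher. The deposited, shrunken values gave 2033 higher and 1895 lower, and length centring 1804 and 1542. Length centring, the error ceiling, the shrunken values and list medians with the shrinkage undone were chosen after seeing the data. The medians of the erythroid list, 4 of whose genes were tested, and of the mammary list, with 5, changed sign with all members included (0.107 and 0.0177), and the erythroid one also with the shrinkage undone (0.444, 1 gene); the cause was not tested. At an adjusted p under 0.01 the number of members called moved by over 1.5 times in 28 of 47 lists, and with length centring in 13. Leaving out a replicate was not run, since no value per sample was used. No paired analysis was possible because the tables hold no value per replicate.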

Other observations

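Of 23 genes of hypoxia and iron handling 5 fell and 4 rose in 67NR-Tb, against 9.42% and 9.14% of all tested genes, and with length centring 3 fell and 1 rose. The ferritin chains Ftl1 (-0.56 ± 0.09) and Fth1 (-0.24 ± 0.06), the hepcidin paralog Hamp2 (-0.59 ± 0.19), the BMP co-receptor Hfe2 (-0.55 ± 0.11) and the BMP target Id1 (-0.58 ± 0.18) fell in the authors' deposited table, while the transferrin receptor Tfrc (0.38 ± 0.13), adrenomedullin (Adm, 0.52 ± 0.19), Hif1a (0.24 ± 0.08) and Epas1 (0.22 ± 0.08) rose there. Hamp, the hepcidin gene that controls iron release, stood at -0.34 ± 0.19 and was not called (adjusted p = 0.196 by DESeq2's Wald test) in the authors' deposited table. Of 15 chemokine and receptor genes tested 3 rose and 2 fell, against 9.14% and 9.42% of all tested genes. At an adjusted p under 0.01 by DESeq2's Wald test, 1 of the 15 was called. Ccr2 (0.68 ± 0.19) and Cxcl1 (0.56 ± 0.17) were among the rises, and Cxcl9 (-0.40 ± 0.14) and Ccl9 (-0.34 ± 0.11) were the falls, in the authors' deposited table. Of 21 genes of metallothioneins and oxidative stress 7 fell, against 9.42% of all tested genes. Among the falls were the glutathione peroxidases Gpx1 (-0.44 ± 0.07) and Gpx4 (-0.46 ± 0.09), Sod1 (-0.25 ± 0.08) and the factor Nfe2l2 (-0.27 ± 0.09), and the zinc importer Slc39a14 rose (0.61 ± 0.12), in the authors' deposited table. Among 21 hepatocyte transcription factors 2 rose and 2 fell, shares near the 9.14% and 9.42% of all tested genes; Prox1 (0.75 ± 0.13) and Foxa3 (0.70 ± 0.16) were the rises and Esrra (-0.52 ± 0.15) was among the falls, in the authors' deposited table. Prox1 had a higher effect in 67NR-Tb (0.87 ± 0.15) than in 4T1-Tb (-0.02 ± 0.22; adjusted p of the difference 0.00597). Pericentral genes fell in 4 of 19 cases, with 1 rise, and periportal genes in 4 of 14, with 2 rises. Over all tested genes 9.42% were lower and 9.14% higher. With length centring 3 pericentral genes fell and 1 rose, and 2 periportal genes fell and 2 rose. Clock genes fell in 2 of 20 cases, Cry2 (-0.35 ± 0.13) among them, a share near the 9.42% of all tested genes, in the authors' deposited table. Of 15 tested genes of the growth hormone axis and urinary proteins 13 were not called. Shares higher and lower were below the 9.14% and 9.42% of all tested genes. Stat5b was lower (-0.38 ± 0.09) and Bcl6 higher (0.44 ± 0.17) in the authors' deposited table, with Mup3 at 0.07 ± 0.15.

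Some cytosolic chaperones, picked after their values were seen, were higher in 67NR-Tb, while Hspa8 (0.22 ± 0.12) was not called in the authors' deposited table. Hsph1 (0.56 ± 0.12), Dnajb4 (0.54 ± 0.11), Hsp90aa1 (0.50 ± 0.14) and Dnaja1 (0.31 ± 0.10) rose in the authors' deposited table. With the shrinkage undone Hsph1 stood at 0.63 ± 0.13 in 67NR-Tb and -0.40 ± 0.14 in 4T1-Tb, and Dnaja1 at 0.34 ± 0.11 in 67NR-Tb and -0.64 ± 0.12 in 4T1-Tb, both called in opposite directions. The nuclear long non-coding RNA Neat1 stood at -0.60 ± 0.17 in 67NR-Tb and 0.55 ± 0.17 in 4T1-Tb, opposite as well. Xist had a base mean of 30634 and did not pass the test (0.01 ± 0.11) in the authors' deposited table, where the Y-linked Ddx3y, Kdm5d, Uty and Eif2s3y were listed at 0; the labels used here give no sex.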
